A study of Homo sapiens with 4 samples.

Results

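The fatty acid synthesis and desaturation genes are 10 genes picked by name (SREBF1, ACSS2, ACLY, ACACA, FASN, ELOVL6, SCD, ELOVL5, FADS1 and FADS2) from the 20372 genes of a read count table, and all 10 were among the 12794 genes with enough reads to test. The cells were TPC1, an established line from a human papillary thyroid carcinoma that is driven by a RET fusion. They received the RET inhibitor BLU6864 together with the FGFR inhibitor BGJ398 for 24 h (RETi + FGFRi, 2 libraries), or BLU6864 alone for 24 h (RETi, 2 libraries). Both groups thus carried the RET inhibitor, and each comparison asks what adding the FGFR inhibitor did to cells in which RET was already inhibited. Cells given vehicle or BGJ398 alone were not analysed here. The labels give the dose as 100 µM and the study's methods give the same figure in nM, so its unit is uncertain. The labels do not state whether libraries of a group were separate cultures of this 1 cell line, and p-values therefore measure a spread between libraries that may be technical.

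Cells build fatty acids from acetyl-CoA, which ACLY makes from citrate and ACSS2 makes from acetate. ACACA carboxylates acetyl-CoA to malonyl-CoA, FASN condenses these units into palmitate, ELOVL6 lengthens palmitate, and SCD places the first double bond in the saturated chain. ELOVL5, FADS1 and FADS2 lengthen and desaturate the essential polyunsaturated fatty acids taken up from outside. SREBF1 encodes a membrane-bound transcription factor that is cut and moves to the nucleus, where it activates most of these genes, and growth factor signalling through PI3K and AKT is a known input to it.

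SREBP is known to act through sites next to the boxes for NF-Y and Sp1, and the part of such boxes in the results was not tested. The sequences just before the transcription starts of the 4 members that later passed the test as lower are shown as description only. Each run is the 250 bases before an annotated start in RefSeq (GRCh38.p14), 5′ to 3′ on the gene's strand, and ends at the base before the start. Capitals mark CCAAT boxes (CCAAT, or ATTGG on the other strand) and GC boxes (GGGCGG, or CCGCCC on the other strand). ACLY lies at chr17:41918952-41919201 on the minus strand, ACSS2 at chr20:34874739-34874988 on the plus strand, ELOVL6 at chr4:110198616-110198865 on the minus strand and SCD at chr10:100346983-100347232 on the plus strand. ACLY and ACSS2 each have another annotated start, which is not shown.
ACLY: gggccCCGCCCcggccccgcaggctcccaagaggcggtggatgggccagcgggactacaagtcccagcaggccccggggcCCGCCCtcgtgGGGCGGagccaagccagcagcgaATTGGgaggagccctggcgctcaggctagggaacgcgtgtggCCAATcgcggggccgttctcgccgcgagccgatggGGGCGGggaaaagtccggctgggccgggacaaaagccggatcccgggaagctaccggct
ACSS2: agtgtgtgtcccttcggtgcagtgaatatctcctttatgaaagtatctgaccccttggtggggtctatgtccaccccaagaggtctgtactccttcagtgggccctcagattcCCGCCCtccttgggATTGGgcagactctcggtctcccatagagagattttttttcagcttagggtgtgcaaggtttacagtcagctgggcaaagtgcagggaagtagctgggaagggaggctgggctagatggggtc
ELOVL6: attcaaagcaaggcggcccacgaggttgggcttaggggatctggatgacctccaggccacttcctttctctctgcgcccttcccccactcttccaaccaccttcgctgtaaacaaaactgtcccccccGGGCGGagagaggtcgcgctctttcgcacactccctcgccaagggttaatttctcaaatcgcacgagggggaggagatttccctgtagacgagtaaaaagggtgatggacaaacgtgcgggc
SCD: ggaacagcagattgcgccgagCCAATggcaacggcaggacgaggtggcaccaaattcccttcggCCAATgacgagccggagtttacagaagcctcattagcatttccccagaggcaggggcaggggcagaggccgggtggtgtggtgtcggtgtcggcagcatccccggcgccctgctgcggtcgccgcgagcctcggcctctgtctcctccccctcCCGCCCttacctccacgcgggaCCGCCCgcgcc

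The upstream run of ACLY held 2 CCAAT boxes and 4 GC boxes, and that of SCD held 2 of each. The run of ACSS2 held 1 CCAAT box and 1 GC box, and that of ELOVL6 held 1 GC box and no CCAAT box. Before the other annotated starts, ACSS2 had 3 GC boxes and 0 CCAAT boxes, and ACLY had 3 GC boxes and 2 CCAAT boxes. RefSeq windows from 250 bases before to 50 bases after a start matched 9 members (all but FASN), with 14 windows among them, some of which overlap and share the same boxes. A CCAAT box was found on either strand in 8 of the 14 windows (57.1%), against 34.6% of all 35116 windows. A GC box was found in 11 of the 14 (78.6%), against 45.0% of all windows. Counted by gene, 6 of the 9 members had a CCAAT box and 8 had a GC box in at least 1 window. The sterol regulatory element TCACNCCAC was in 0 of the 14 member windows and in 1.13% of all windows, and the E-box CACGTG was in 1 (ELOVL5) and in 7.26% of all windows. GC boxes may overlap each other where a GC-rich run holds more than 1 match, and CACGTG reads the same on both strands. Over all promoters, the median share of G or C upstream of the start was 58.0%. Among the runs shown it was 73.6% for ACLY, 68.0% for SCD, 57.2% for ELOVL6 and 53.6% for ACSS2. Across all member runs it ranged from 43.6% to 81.6%, both in ACACA. The part of base content in the box shares was not tested. The matches describe letters only.

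After 24 h of RETi + FGFRi, 4 of the 10 genes were lower than after RETi alone and none was higher. ACLY and ACSS2, the enzymes that make cytosolic acetyl-CoA, were lower by 32.7% and 31.3%, the elongase ELOVL6 by 29.3% and the desaturase SCD by 21.6%. The regulator SREBF1, the carboxylase ACACA, the synthase FASN and the polyunsaturated enzymes ELOVL5, FADS1 and FADS2 did not pass the test. A gene passed where edgeR's quasi-likelihood test gave an adjusted p below 0.05 over all 12794 genes tested. By that rule 24.1% of all genes tested passed, 11.3% as lower and 12.8% as higher. These shares rest on both RETi libraries: 1446 genes were lower and 1643 higher with all libraries, 653 and 850 without RETi replicate 1, and 553 and 691 without RETi replicate 2, with 3 members lower in each of those fits. All 10 members averaged 500 normalised counts or more, and of the 7765 genes at such a level 29.7% passed, 14.5% as lower and 15.2% as higher. No member was higher at an unadjusted p below 0.05 either, or by DESeq2. With the thresholds the study used, an unadjusted p below 0.01 and a log2 fold change below −0.5, the 3 members ACLY, ACSS2 and ELOVL6 were lower, against 3.03% of all genes tested, and 0 members were higher beyond 0.5, against 4.96%. The median log2 fold change of the 10 members was −0.23, against 0.000431 over all genes tested. In bulk RNA, a lower level in every cell and fewer cells with a high level cannot be told apart.

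**Figure D1:**
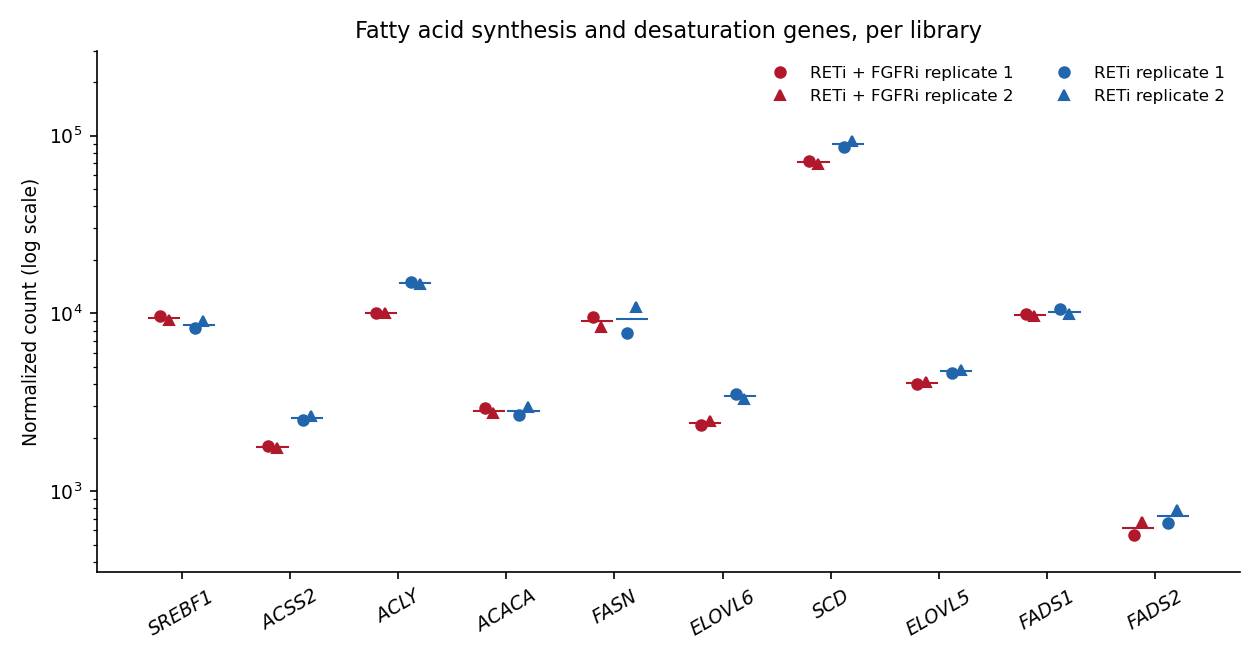
Normalised read counts (log axis) of the 10 genes in the 2 RETi + FGFRi libraries (red) and the 2 RETi libraries (blue), with a circle for replicate 1, a triangle for replicate 2 and a bar for each group's mean. The RETi + FGFRi symbols of ACSS2, ACLY, ELOVL6, SCD and ELOVL5 lie below both RETi symbols, those of SREBF1 lie above them, and those of ACACA, FASN, FADS1 and FADS2 overlap them.

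The groups did not overlap in 6 of 10 members, against 65.1% of all genes tested. All RETi + FGFRi libraries were below all RETi libraries for ACSS2, ACLY, ELOVL6, SCD and ELOVL5, 5 of 10 members, against 33.0% of all genes tested. They were above them for SREBF1, 1 of 10 members, against 32.1% of all genes tested. For ACACA, FASN, FADS1 and FADS2 the libraries of the groups overlapped.

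**Figure D2:**
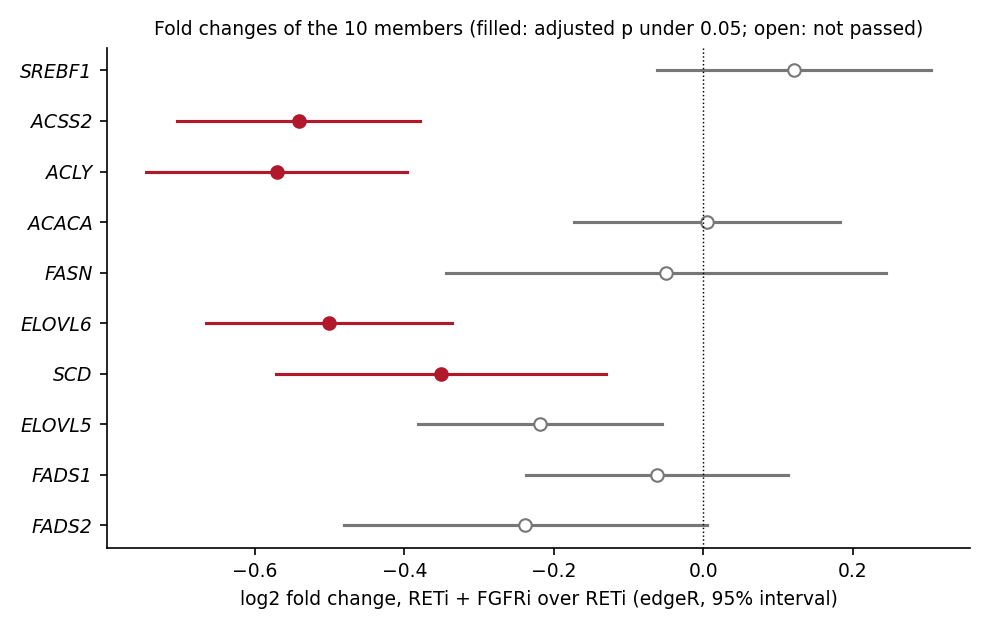
Fold changes (log2, RETi + FGFRi over RETi) of the 10 genes from edgeR, with 95% intervals; filled symbols had an adjusted p below 0.05 and open symbols did not. ACLY (−0.57), ACSS2 (−0.54), ELOVL6 (−0.50) and SCD (−0.35) are filled, and the intervals of SREBF1, ACACA, FASN, FADS1 and FADS2 include 0.

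The transcription factor gene SREBF1 (ENSG00000072310, hg19 chromosome 17, 17713713 to 17740325) had 9608 and 9204 normalised counts in RETi + FGFRi libraries, against 8236.5 and 9028 in RETi libraries. Both RETi + FGFRi values lay above both RETi values, by a margin smaller than the gap between the RETi libraries. Means were 9406 ± 286 after RETi + FGFRi and 8632 ± 559 after RETi (SD, n = 2 each). The log2 fold change was 0.12 ± 0.083 (SE; 95% interval −0.06 to 0.30) with an edgeR adjusted p of 0.31, so the interval ran between −4.22% and 23.5%. RAI1 overlaps its coordinates (log2 fold change −0.15, edgeR adjusted p 0.22), and reads in the shared stretch could be split between them, because the sources used here do not give how the counting treated strand and shared reads.

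Within each library, SREBF1 stood higher relative to SREBF2, which encodes the SREBP that mainly drives cholesterol genes, after the combination. The ratio of SREBF1 reads to SREBF2 reads was 0.914 and 0.893 in RETi + FGFRi libraries, against 0.707 and 0.717 in RETi libraries. Relative to its own target ACLY, SREBF1 had 0.954 and 0.919 reads per ACLY read in RETi + FGFRi libraries, against 0.546 and 0.614 in RETi libraries. Neither ratio overlapped between the groups, and 65.1% of single genes tested did not overlap either. The ratio to ACLY carries the fall of ACLY itself (log2 fold change −0.57), while SREBF1 and SREBF2 did not pass the test. Both ratios were chosen after their values were seen. An exact permutation test of 2 against 2 libraries cannot give a p below 0.333, so the ratios between members are given without a test.

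ACSS2 (ENSG00000131069, hg19 chromosome 20, 33459949 to 33515769), the acetyl-CoA synthetase that uses acetate, had 1782 and 1758 normalised counts in RETi + FGFRi libraries, against 2503 and 2638 in RETi libraries. The groups were far apart compared with the differences inside them. Means were 1770.03 ± 17.4 after RETi + FGFRi and 2570.35 ± 95.8 after RETi (SD, n = 2 each), and ACSS2 fell by 0.54 ± 0.074 on the log2 scale (SE; 95% interval −0.70 to −0.38; edgeR adjusted p 0.000968). The overlapping gene GGT7 had a log2 fold change of −0.01 (edgeR adjusted p 0.95).

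ACLY (ENSG00000131473, hg19 chromosome 17, 40023161 to 40086795), ATP citrate lyase, had 10072 and 10013 normalised counts in RETi + FGFRi libraries, against 15077.5 and 14691 in RETi libraries. Each pair of replicates was close, and the groups did not overlap. Means were 10043 ± 41.9 after RETi + FGFRi and 14884 ± 273 after RETi (SD, n = 2 each), and ACLY fell by 0.57 ± 0.079 on the log2 scale (SE; 95% interval −0.75 to −0.40; edgeR adjusted p 0.00102). The ratio of ACLY to ACSS2 reads was 5.65 and 5.70 in RETi + FGFRi libraries, against 6.02 and 5.57 in RETi libraries. That ratio of the citrate route to the acetate route overlapped between the groups.

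ACACA (ENSG00000132142, hg19 chromosome 17, 35441923 to 35766909), the acetyl-CoA carboxylase of the cytosol, had 2929 and 2741 normalised counts in RETi + FGFRi libraries, against 2687 and 2953 in RETi libraries. The RETi + FGFRi values fell between the RETi values. Means were 2835 ± 133 after RETi + FGFRi and 2819.8 ± 188 after RETi (SD, n = 2 each), with a log2 fold change of 0.0049 ± 0.081 (SE; 95% interval −0.17 to 0.18; edgeR adjusted p 0.97). In percent, that interval ran between −11.3% and 13.5%. The overlapping gene C17orf78 had 2 and 4 reads in RETi + FGFRi libraries and 0 and 0 in RETi libraries.

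There were 3.44 and 3.65 ACLY reads per ACACA read in RETi + FGFRi libraries, against 5.61 and 4.98 in RETi libraries, with no overlap. This ratio within a library does not depend on how libraries were scaled, and it was chosen after its values were seen and has no test.

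FASN (ENSG00000169710, hg19 chromosome 17, 80036214 to 80056208), fatty acid synthase, had 9589 and 8412 normalised counts in RETi + FGFRi libraries, against 7798 and 10794 in RETi libraries. The lowest and the highest value both came from RETi libraries, and both RETi + FGFRi values lay between them. Means were 9001 ± 832 after RETi + FGFRi and 9296 ± 2118 after RETi (SD, n = 2 each), with a log2 fold change of −0.05 ± 0.13 (SE; 95% interval −0.34 to 0.25; edgeR adjusted p 0.82). The interval ran between −21.2% and 18.5%, so a change of FASN was not detectable here. It draws largely on the spread of other genes (8.96 prior against 2 residual degrees of freedom), and the RETi libraries of FASN were far apart. A fall as large as that of ACLY lies outside the interval, but these libraries cannot exclude it. Without RETi replicate 1 the log2 fold change was −0.26, and without RETi replicate 2 it was 0.21.

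The gap between the RETi libraries in FASN was wide for a gene of its level. RETi replicate 2 exceeded RETi replicate 1 by 0.47 on the log2 scale, and 0.258% of the 7765 genes averaging 500 normalised counts or more had a wider gap in either direction. The canonical FASN transcript is long, 8464 bases, and 65.3% of its bases are G or C. Of the genes at this level with a known length, 31 had a transcript of at least 8000 bases with at least 60% G or C, FASN among them, and 100% of these 31 were higher in RETi replicate 2 than in RETi replicate 1, by a median of 0.24 on the log2 scale. Length or GC content alone went with smaller medians. The median was 0.0441 for the 748 genes of at least 8000 bases, 64.3% of them higher in RETi replicate 2. It was 0.0717 for the 1043 genes with at least 60% G or C, 75.2% of them higher. The widest differences were mostly in long transcripts. Of the 20 genes with a difference at least as wide as that of FASN in either direction, 16 had at least 8000 bases and 4 had fewer. Among all 7757 genes at this level with a known length, 748 had at least 8000 bases. Of the 20, 3 were in the class of 31, which was drawn with FASN in view. The same 31 genes had a median difference of −0.07 between RETi + FGFRi replicate 2 and replicate 1, and genes under 8000 bases had a median of −0.00447 between the RETi libraries. With a trend on length and GC content removed from each library, an alternative chosen after seeing the data, FASN had a log2 fold change of −0.16 with an edgeR adjusted p of 0.19. The part of length and GC content in the gap of FASN was not tested.

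**Figure D3:**
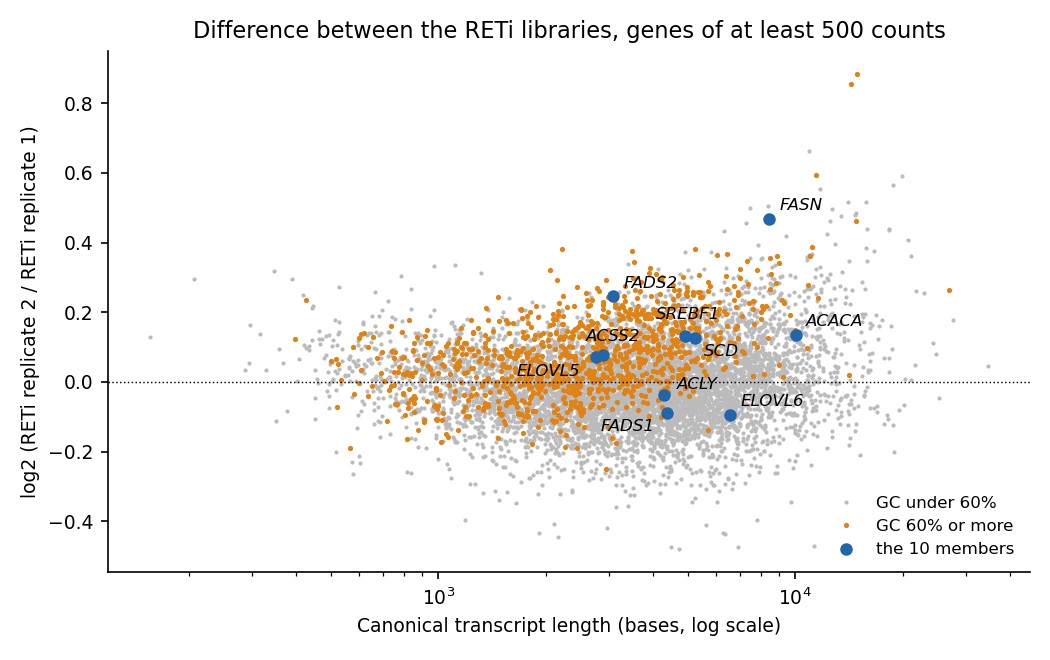
Difference between the RETi libraries (log2 of replicate 2 over replicate 1) against the length of the canonical transcript (bases, log axis) for genes averaging 500 normalised counts or more, with genes of 60% or more G and C in orange, other genes in grey and the 10 members in blue. FASN stands at 0.47, above the other 9 members, which lie between −0.09 (ELOVL6) and 0.25 (FADS2).

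ELOVL6 (ENSG00000170522, hg19 chromosome 4, 110967002 to 111120355), the elongase that extends palmitate, had 2364 and 2481 normalised counts in RETi + FGFRi libraries, against 3532 and 3309 in RETi libraries. The groups did not overlap. Means were 2422 ± 82.7 after RETi + FGFRi and 3421 ± 158 after RETi (SD, n = 2 each), and ELOVL6 fell by 0.50 ± 0.075 on the log2 scale (SE; 95% interval −0.67 to −0.34; edgeR adjusted p 0.00139). There were 0.246 and 0.295 ELOVL6 reads per FASN read in RETi + FGFRi libraries, against 0.453 and 0.307 in RETi libraries, and the RETi values were far apart, as those of FASN were.

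SCD (ENSG00000099194, hg19 chromosome 10, 102106881 to 102124591), stearoyl-CoA desaturase, had 71729.6 and 69436 normalised counts in RETi + FGFRi libraries, against 85894 and 93794 in RETi libraries. It ranked 20th among all genes of the table by its mean normalised count, and both RETi + FGFRi libraries were below both RETi libraries. Means were 70583 ± 1622 after RETi + FGFRi and 89844 ± 5586 after RETi (SD, n = 2 each), and SCD fell by 0.35 ± 0.10 on the log2 scale (SE; 95% interval −0.57 to −0.13; edgeR adjusted p 0.0279). The call rested on having both RETi libraries: the log2 fold change was −0.41 with an edgeR adjusted p of 0.11 without RETi replicate 1, and −0.29 with an edgeR adjusted p of 0.27 without RETi replicate 2. The ratio of SCD to ELOVL6 reads was 30.3 and 28.0 in RETi + FGFRi libraries, against 24.3 and 28.3 in RETi libraries, and overlapped.

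ELOVL5 (ENSG00000012660, hg19 chromosome 6, 53132196 to 53213947), the elongase of polyunsaturated chains, had 3986 and 4132 normalised counts in RETi + FGFRi libraries, against 4597 and 4828 in RETi libraries. The groups did not overlap, yet the gene narrowly missed the threshold. Means were 4059 ± 103 after RETi + FGFRi and 4713 ± 163 after RETi (SD, n = 2 each), with a log2 fold change of −0.22 ± 0.074 (SE; 95% interval −0.38 to −0.06; edgeR adjusted p 0.0536). Its edgeR adjusted p was 0.0413 without RETi + FGFRi replicate 2 and 0.00466 (log2 fold change −0.32) with the trend on length and GC content removed, but 0.094 without RETi + FGFRi replicate 1, 0.17 without RETi replicate 1 and 0.31 without RETi replicate 2, and DESeq2 gave an adjusted p of 0.0755. There were 0.593 and 0.6004 ELOVL6 reads per ELOVL5 read in RETi + FGFRi libraries, against 0.768 and 0.685 in RETi libraries, with no overlap.

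FADS1 (ENSG00000149485, hg19 chromosome 11, 61567099 to 61596790), a front-end desaturase of polyunsaturated fatty acids, had 9895 and 9677 normalised counts in RETi + FGFRi libraries, against 10509.7 and 9888 in RETi libraries. The highest RETi + FGFRi value was just above the lowest RETi value. Means were 9786 ± 155 after RETi + FGFRi and 10199 ± 440 after RETi (SD, n = 2 each), with a log2 fold change of −0.06 ± 0.080 (SE; 95% interval −0.24 to 0.11; edgeR adjusted p 0.61). In percent, that interval ran between −15.2% and 8.14%.

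FADS2 (ENSG00000134824, hg19 chromosome 11, 61560452 to 61634826), the desaturase that acts before FADS1 in the same pathway, had 564 and 668 normalised counts in RETi + FGFRi libraries, against 664 and 787 in RETi libraries. The higher RETi + FGFRi value and the lower RETi value were nearly the same. Means were 616 ± 73.6 after RETi + FGFRi and 726 ± 87.3 after RETi (SD, n = 2 each), with a log2 fold change of −0.24 ± 0.11 (SE; 95% interval −0.48 to 0.0048; edgeR adjusted p 0.14), and leaving out 1 library moved the log2 fold change widely. It was −0.36 (edgeR adjusted p 0.0295) without RETi + FGFRi replicate 2, −0.12 (edgeR adjusted p 0.47) without RETi + FGFRi replicate 1, −0.35 (edgeR adjusted p 0.0752) without RETi replicate 1 and −0.11 (edgeR adjusted p 0.64) without RETi replicate 2. All of the FADS1 coordinates and those of FEN1, which was lower (log2 fold change −0.44, edgeR adjusted p 0.0223), lie inside the coordinates of FADS2, so the FADS2 count is uncertain. There were 17.5 and 14.5 FADS1 reads per FADS2 read in RETi + FGFRi libraries, against 15.8 and 12.6 in RETi libraries, and this ratio overlapped.

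Summed over the 10 genes, reads made up 0.468% and 0.434% of all counts in RETi + FGFRi libraries, against 0.545% and 0.580% in RETi libraries. The Wilson 95% intervals of the shares, which cover counting error only, were narrow, at 0.466% to 0.471% and 0.431% to 0.436% for RETi + FGFRi and 0.542% to 0.548% and 0.577% to 0.583% for RETi. SCD alone gave more than the other 9 genes together in every library. Without SCD, the other 9 genes made up 0.194% and 0.180% in RETi + FGFRi libraries, against 0.214% and 0.224% in RETi libraries. The groups did not overlap, as in 65.1% of single genes tested. These 9 include ACLY, ACSS2 and ELOVL6, which passed as lower, so the sum does not speak for the members that did not pass.

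Per kilobase of the canonical transcript, the genes of this route differed widely in level. SCD had the highest level, 13457 ± 309 normalised counts per kilobase after RETi + FGFRi and 17129.5 ± 1065 after RETi (SD, n = 2 each). ACLY followed with 2339 ± 9.76 after RETi + FGFRi and 3467 ± 63.7 after RETi, and FADS1 with 2242 ± 35.4 after RETi + FGFRi and 2337 ± 101 after RETi. SREBF1, ELOVL5 and FASN came next, at 1919, 1468 and 1063 after RETi + FGFRi and 1761, 1704 and 1098 after RETi. ACSS2, ELOVL6, ACACA and FADS2 were lowest, at 614, 369, 283 and 199 after RETi + FGFRi and 891, 521, 282 and 235 after RETi. Neighbours in this order did not overlap between genes, except SREBF1 and ELOVL5 after RETi. The order of the 10 genes was the same in both groups, and the order rests on the length of 1 transcript per gene.

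Across 10 other ways of processing the counts, ACLY, ACSS2 and ELOVL6 stayed lower and past the threshold each time. Their log2 fold changes ranged from −0.59 to −0.47 for ACLY, from −0.58 to −0.46 for ACSS2 and from −0.55 to −0.45 for ELOVL6, and the highest adjusted p among these fits was 0.0124. SCD was past the threshold in 8 of the 10, with the 2 exceptions given above. The number of members called lower ranged from 3 to 6, and no member was called higher in any of them.

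**Figure D4:**
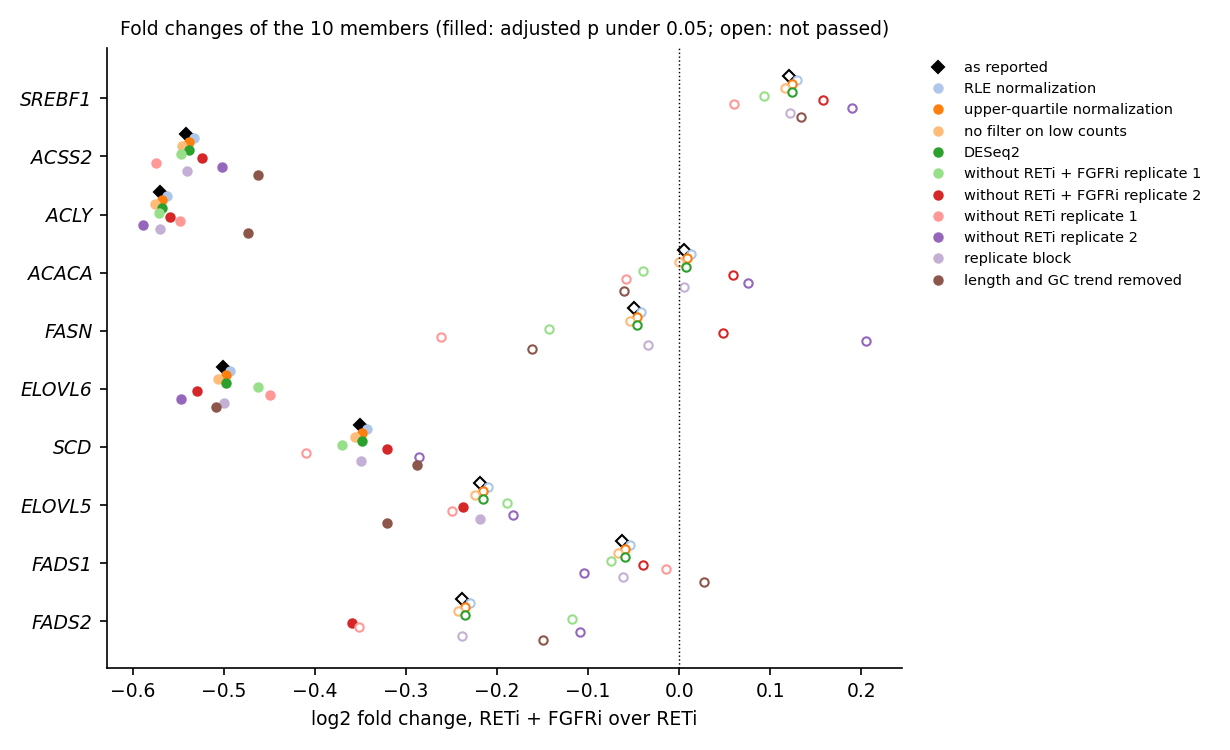
Fold changes (log2, RETi + FGFRi over RETi) of the 10 genes as reported (diamonds) and under 10 other ways of processing the counts (circles); filled symbols had an adjusted p below 0.05. ACLY, ACSS2 and ELOVL6 are filled throughout, and FASN ranges from −0.26 to 0.21.

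The genes around the route were taken from 9 lists of 152 genes in all. Their counts stand beside 11.3% lower and 12.8% higher over all genes tested. Among genes averaging 500 normalised counts or more, these shares were 14.5% and 15.2%. Several lists lie near these shares, so a named gene does not speak for its list, and no list was tested as a set. Of 16 tested genes that control SREBP or share its targets, 1 was lower, 2 were higher and the median log2 fold change was −0.10. INSIG1, which holds SREBP in the endoplasmic reticulum and is itself an SREBP target, had 6899 and 6298 normalised counts in RETi + FGFRi libraries, against 8639.55 and 8494 in RETi libraries, and fell by 0.38 on the log2 scale (edgeR adjusted p 0.00826). NR1H3, the nuclear receptor LXR alpha that drives SREBF1 transcription, was higher (0.47, edgeR adjusted p 0.0276), as was NFYB, a subunit of the CCAAT-binding factor (0.28, edgeR adjusted p 0.0394). SREBF2 had 10517 and 10303 normalised counts in RETi + FGFRi libraries, against 11654 and 12593 in RETi libraries, and its log2 fold change of −0.22 did not pass (edgeR adjusted p 0.0716). Without RETi replicate 1, and likewise without RETi replicate 2, none of this list was called, and without RETi + FGFRi replicate 2 none was called higher. DESeq2 called 1 gene of this list lower and 0 higher, so the calls of NR1H3 and NFYB were lost with it.

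Of 13 tested genes that supply acetyl-CoA, malonyl-CoA and NADPH, 2 were lower, 1 was higher and the median log2 fold change was −0.06. SLC25A1, the carrier that exports citrate for ACLY from mitochondria, had 3145 and 3271 normalised counts in RETi + FGFRi libraries, against 4045 and 4318 in RETi libraries, and fell by 0.39 on the log2 scale (edgeR adjusted p 0.00522). The mitochondrial fatty acid synthesis gene OXSM was higher (0.49, edgeR adjusted p 0.00743). The lower count of this list was 0 without RETi replicate 2, 1 without RETi replicate 1, 1 without RETi + FGFRi replicate 1, and 1 with the trend on length and GC content removed.

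Among 9 tested genes of elongation, ELOVL1, an elongase of saturated and monounsaturated very long chains, was lower (−0.31, edgeR adjusted p 0.0112), none was higher, also at an unadjusted p below 0.05, and the median was −0.07. Among 8 tested genes of desaturation and its electron carriers, 1 was lower and 3 were higher, with a median of −0.09. CYB5A, the microsomal cytochrome b5 that passes electrons to desaturases, had 2944 and 3594 normalised counts in RETi + FGFRi libraries, against 2344 and 2181.6 in RETi libraries, and was higher (0.53, edgeR adjusted p 0.00345). CYB5R4 (0.44, edgeR adjusted p 0.00291) and the FADS family gene FADS3 (0.28, edgeR adjusted p 0.0254) were also higher, while CYB5B, the cytochrome b5 of the outer mitochondrial membrane, was lower (−0.36, edgeR adjusted p 0.00734). Without RETi replicate 1 neither list had a lower call, without RETi replicate 2 elongation had none, and without RETi + FGFRi replicate 2 each list had 2. Without RETi + FGFRi replicate 1, desaturation had 2 lower calls and elongation 1 higher call. With the trend on length and GC content removed, elongation had 4 lower calls and desaturation 2, and DESeq2 gave desaturation 2 lower calls.

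Of 12 tested acyl-CoA synthetases, 2 were lower and 1 was higher, with a median of −0.08. ACSL1 was higher (0.44, edgeR adjusted p 0.00382) and ACSL4, which prefers arachidonate, was lower (−0.29, edgeR adjusted p 0.0407), both activating long-chain fatty acids. SLC27A2 was lower on few reads, with means of 3.07 normalised counts after RETi + FGFRi and 15.99 after RETi (log2 fold change −2.33, edgeR adjusted p 0.0128). In the list of uptake and binding, 1 of 5 tested genes was lower and none was higher, also at an unadjusted p below 0.05, with a median of −0.11: MFSD2A, a transporter of lysophospholipids that carry polyunsaturated fatty acids (−0.48, edgeR adjusted p 0.0187). With either RETi library left out, neither list had a lower call, and without RETi + FGFRi replicate 1 the lower counts were 3 and 2. DESeq2 called 1 synthetase lower and 0 genes of uptake and binding, and with the trend on length and GC content removed 4 genes of uptake and binding were lower.

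Of 22 tested genes of glycerolipid assembly and storage, 3 were lower and 6 were higher, with a median of −0.07. The lipid droplet coat gene PLIN2 had 29006 and 26272 normalised counts in RETi + FGFRi libraries, against 21975 and 20804 in RETi libraries, and was higher (0.37, edgeR adjusted p 0.0165). ABHD5, a coactivator of triglyceride lipase, was higher (0.52, edgeR adjusted p 0.00152), as was the phosphatidate phosphatase gene LPIN3 (0.44, edgeR adjusted p 0.018), while PLIN3 was lower (−0.30, edgeR adjusted p 0.0162). The higher count was 2 without RETi + FGFRi replicate 1, 2 without RETi replicate 1 and 1 without RETi replicate 2, and the lower count was 0 with either RETi library left out. DESeq2 called 1 lower and 3 higher.

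Of 23 tested genes of fatty acid oxidation, 3 were lower and 2 were higher, with a median of −0.03. CPT1A, the gate of fatty acid entry into mitochondria, which malonyl-CoA inhibits, had 754 and 749 normalised counts in RETi + FGFRi libraries, against 1043 and 1033 in RETi libraries, and fell by 0.47 on the log2 scale (edgeR adjusted p 0.00265). CPT2 (−0.32, edgeR adjusted p 0.0361) and the peroxisomal gene HSD17B4 (−0.33, edgeR adjusted p 0.0118) were lower too, and HADH was higher (0.32, edgeR adjusted p 0.0396). The higher count was 5 without RETi + FGFRi replicate 1 and 0 with any 1 of the other 3 libraries left out, and the lower count was 1 without RETi replicate 1. DESeq2 called 2 lower and 0 higher, and with the trend on length and GC content removed 0 were higher.

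Of 23 tested genes of cholesterol synthesis and uptake, the branch that SREBF2 mainly drives, 16 were lower and none was higher by edgeR or DESeq2, with a median log2 fold change of −0.40. At an unadjusted p below 0.05, 1 was higher (STARD4, a sterol carrier, log2 fold change 0.22). Among those with the smallest p were SQLE (−0.75, edgeR adjusted p 0.000358), DHCR7 (−0.62, edgeR adjusted p 0.000911) and EBP (−0.58, edgeR adjusted p 0.00102). SQLE, the squalene epoxidase, had 7324 and 6614 normalised counts in RETi + FGFRi libraries, against 11821 and 11558 in RETi libraries. The count lower of this list ranged from 11 to 19 when 1 library was left out, and 1 gene was higher without RETi + FGFRi replicate 2. These counts and medians describe the lists, and no difference between a list and the 10 members was tested.

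**Figure D5:**
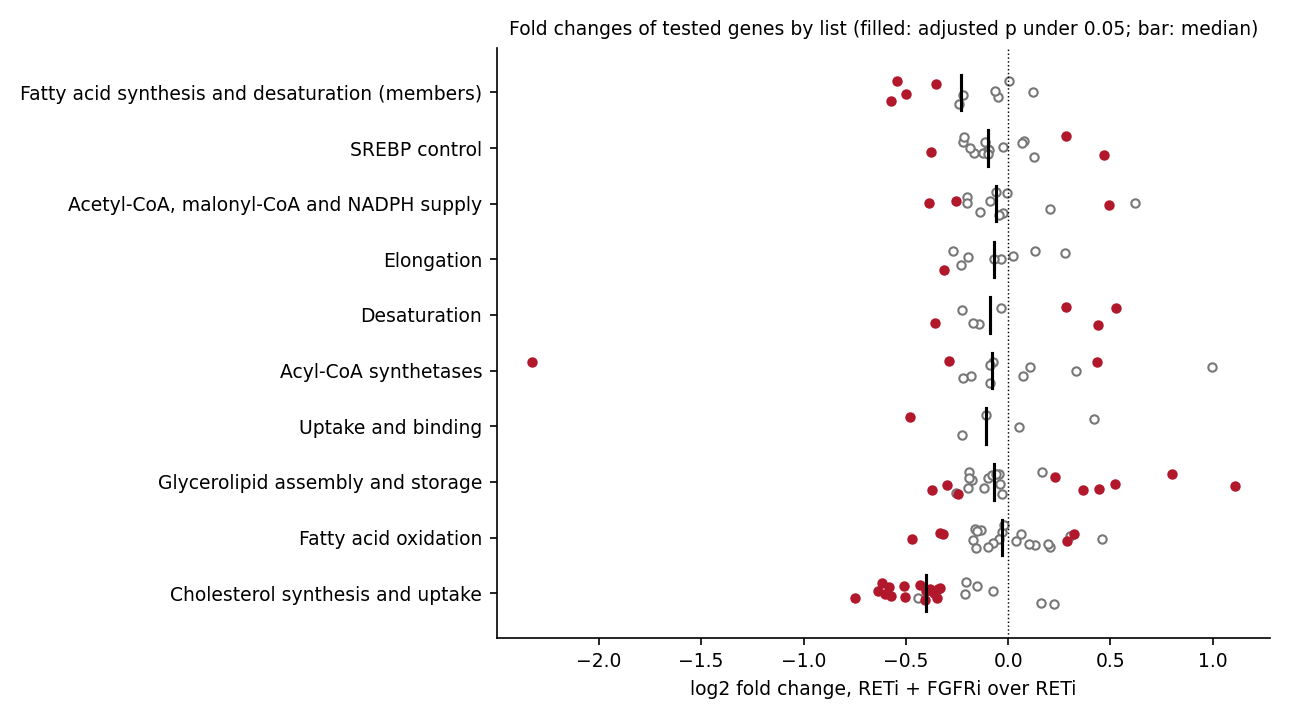
Fold changes (log2, RETi + FGFRi over RETi) of the 10 genes and of the tested genes of 9 other lists, 1 point per gene, filled where the adjusted p was below 0.05, with a bar at each median. The cholesterol genes have the lowest median (−0.40) and the 10 fatty acid genes the next (−0.23), and the other medians lie between −0.11 and −0.03.

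Libraries held 24695040 and 27151015 counts after RETi + FGFRi and 26486456 and 27457040 after RETi. Replicates differed by more than counting error, and no library was a copy of another. Of 7 thyroid follicular markers, PAX8 had 20648.5 and 18290.3 normalised counts in RETi + FGFRi libraries, against 19647 and 20771 in RETi libraries. FOXE1 had 365 and 440 in RETi + FGFRi libraries, against 453 and 533 in RETi libraries, and TG had 158 and 119 in RETi + FGFRi libraries, against 96.1 and 106 in RETi libraries, neither overlapping between the groups. NKX2-1 was at 0 and TSHR and SLC5A5 were under 10 counts in every library. Among markers of other cells that make or store lipid, LEP and FABP4 were at 0 in all libraries and ADIPOQ was at or near 0. The 5 adipocyte markers summed to 58.2 and 58.4 normalised counts in RETi + FGFRi libraries, against 36.3 and 30.7 in RETi libraries, nearly all of it PLIN1. The 6 epithelial markers summed to 2251 and 2557 normalised counts in RETi + FGFRi libraries, against 3299 and 3284 in RETi libraries, with EPCAM and CDH1 under 10 counts throughout. The 4 C cell markers summed to 33.9 and 19.1 in RETi + FGFRi libraries, against 37.3 and 28.8 in RETi libraries, with CALCA and CALCB at 0 and SYP giving most of it. The 6 fibroblast markers summed to 277 and 257 in RETi + FGFRi libraries, against 241 and 287 in RETi libraries, with COL3A1 at 0 and COL1A1, LUM and PDGFRB giving nearly all of it. The 5 leukocyte markers summed to 2668 and 2295 in RETi + FGFRi libraries, against 2549 and 2617 in RETi libraries, nearly all of it CD68, with PTPRC under 10 counts throughout. The 3 endothelial markers in the table summed to 58.2 and 54.4 in RETi + FGFRi libraries, against 47.1 and 25.9 in RETi libraries, mostly KDR. The 4 hepatocyte markers summed to 5252 and 4747 in RETi + FGFRi libraries, against 5776 and 5809 in RETi libraries, nearly all of it SERPINA1, with ALB under 10 counts throughout. The part of these marker differences in the results was not tested.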

How the data were processed

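RNA of 4 TPC1 libraries was sequenced. Per the labels, TruSeq libraries were read as 50 bp single ends on a HiSeq, and alignment with STAR 2.3 to hg19 and a DESeq2 comparison are listed in the submitters' processing notes; the methods describe a paired-end run with a later STAR. The raw counts of reads per gene that the authors deposited were used here. Beside them they deposited normalised counts, a signal of counts over a factor per library, and their own fold changes and p-values. Of these, only the normalised counts were used here, for the levels shown. Which tool counted reads was not given in the sources used here.

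Counts were normalised by TMM, filtered with filterByExpr (minimum count 10) and tested by edgeR 4.0.16 (R 4.3.3) with a quasi-likelihood F-test and Benjamini-Hochberg adjustment over 12794 genes. TMM scaling served the edgeR test. Normalised counts printed for each library are those the authors deposited, and the means, SDs, ranks, levels per kilobase and group overlaps rest on them. The standard error is the log2 fold change over the root of F, and 95% intervals use 2 residual and 8.96 prior degrees of freedom. Library totals ranged from 24695040 to 27457040. The fit was run on simulated data with 200 changed genes and the same dispersion for all genes. That run checks the code and cannot show how well calls hold in these data. Transcript lengths came from GENCODE canonical transcripts (9 members by identifier, ACACA by symbol).

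The members and the lists were chosen with earlier results of these data known. All 10 members are named; in each list, called genes up to the 4 with the smallest p are named; genes overlapping a member are named. Some genes that this rule picks are not reported here. SREBF2, PLIN1 and the ratios were chosen after their values were seen. Alternatives were RLE and upper-quartile scaling, no filter, DESeq2 1.42.0, leaving out each library, a replicate block, the study's thresholds, and a length and GC correction (loess) added after seeing the data. A comparison of member proteins was not made.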

Additional observations from a re-analysis of the deposited data

How the results depend on the processing

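ACLY, ACSS2 and ELOVL6 kept direction and call under all 10 alternatives. Over all genes, leaving out 1 library gave 553 to 1503 lower and 691 to 1942 higher genes, against 1446 and 1643 with all libraries, and the study's thresholds (unadjusted p below 0.01 and a log2 fold change beyond 0.5) gave 388 lower and 634 higher genes, with 3 members lower (ACLY, ACSS2 and ELOVL6) and 0 higher. DESeq2 called 1018 lower and 1250 higher genes. Signs that turned were of members whose log2 fold change as reported was near 0. ACACA was −0.00036 without the filter and −0.061 after the length and GC correction, and ranged from −0.058 to 0.075 without 1 library. FADS1 was 0.028 after that correction. FASN moved further, to −0.26 without RETi replicate 1 and 0.21 without RETi replicate 2, so its direction depended on the RETi library kept. No value of SREBF1 turned (0.06 to 0.19).

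Libraries with the same replicate number did not deviate together over all genes tested (correlation 0.025 over 12794 genes). This correlation alone cannot settle whether the numbers pair libraries. With a replicate block 1738 genes were lower and 2041 higher, and 5 members were lower, ELOVL5 added (adjusted p 0.0412).

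With 1 library left out, the remaining library of that group is taken to vary like the other group, and 1 residual degree of freedom is left. Members near the threshold (SCD, ELOVL5, FADS2) changed side with the setting.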
